A study of Saccharomyces cerevisiae with 12 samples.

Results

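The nuclear genes of the yeast respiratory chain and ATP synthase were examined in the transcriptome of cells depleted of glutaminyl-tRNA synthetase. Members were chosen by name: every listed nuclear gene whose symbol is COX, QCR, SDH, ATP, CYC or NDE with a number, together with *CYT1*, *RIP1*, *COR1* and *NDI1*. This rule found 59 of the 7130 genes listed. Of these, 40 encode structural subunits, cytochrome c isoforms or NADH dehydrogenases. The other 19 encode assembly or expression factors, including the unrelated corepressor *CYC8*, which the rule takes in by its symbol. The study compared a wild-type *Saccharomyces cerevisiae* strain with a tetO-*GLN4* strain by RNA-seq of 12 cultures, 3 for each of 4 conditions.

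The wild type was BY4742, the strain into which the study transformed the tetO cassette. It has the same mating type and marker genes as those given next for tetO-*GLN4*. The tetO-*GLN4* strain is labelled McFY2, of mating type MATα with the markers his3D1, leu2D0, lys2D0 and ura3D0, and carries the cassette PGLN4::KanMX4-tTA-tetO7 in place of the native *GLN4* promoter. In this construct the transactivator tTA drives *GLN4*, the gene for glutaminyl-tRNA synthetase, and doxycycline releases tTA from the tetO sites. Cells of both strains grew in rich glucose medium (YEPD), without doxycycline or with 1 µg/ml of it, overnight to mid-log phase. The cassette itself is therefore a difference between the strains in both treatments. Each gene has 1 pooled FPKM (mapped fragments scaled to transcript length and library size) per condition, with a 95% confidence interval, both as computed by the authors over the 3 cultures. No value per culture was used, and the sequencing depth is unknown. The strains were normalized in separate tables, so levels were compared within a strain and are set side by side across strains. Only the log2 ratios, each formed within its own table, were tested between strains. A gene is described here as up- or downregulated only where the intervals with and without doxycycline lay apart.

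As a check of the labels, *GLN4* stood at an FPKM of 199.3 without and 199.2 with doxycycline in the wild type. In tetO-*GLN4* it stood at 30.5, with an interval of 24.1 to 36.9, with doxycycline. Its untreated tetO-*GLN4* value is listed at 0 under the status HIDATA instead of OK. That 0 was not read as a level, so no fold change could be given. Over all tested genes the median log2 ratio of FPKM with over without doxycycline came to -0.0031 for the wild type and 0.0071 for tetO-*GLN4*. Summed FPKM fell from 2620990 to 1700080 in tetO-*GLN4*, and weighting each gene by its FPKM gave a mean log2 ratio of -0.67. Relative to that weighted mean every log2 ratio of tetO-*GLN4* is 0.67 higher, which changes many directions given below.

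Electrons enter the yeast chain from NADH through single-protein dehydrogenases (Ndi1, Nde1 and Nde2) that pump no protons and from succinate through complex II. They pass through ubiquinone to complex III, through cytochrome c to complex IV, and from there to oxygen. Complexes III and IV build the proton gradient that drives the ATP synthase. In glucose-grown cells this machinery is held low by carbon catabolite repression, and the activator Hap4, joined to the CCAAT-binding proteins Hap2, Hap3 and Hap5, raises many of its genes when glucose runs out. A few subunits are encoded in mitochondrial DNA. Those 7 genes (*COX1*, *COX2*, *COX3*, *COB*, *ATP6*, *ATP8* and *OLI1*) were listed at 0 in all 4 conditions, as were all 55 mitochondrial genes listed, so only the nuclear part of each complex was measured.

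Cytochrome c is shown first in sequence, because its isoform genes gave the largest opposite changes of the members. The stretch around the heme attachment motif, Cys-X-X-Cys-His, was read from the R64 reference genome, 5′ to 3′ on the coding strand, with the 5 codons of the motif in capitals. Both stretches lie within coding sequence. The first runs along chrX:526377-526421 on the forward strand, and the second along chrV:79879-79923 on the reverse strand.
CYC1: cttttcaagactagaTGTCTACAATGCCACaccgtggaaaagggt
CYC7: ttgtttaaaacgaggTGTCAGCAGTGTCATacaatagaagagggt
The stretches differ at 15 of 45 bases, 5 of them within the motif codons. Over the aligned coding sequences the genes were 77.0% identical, and their longest shared run was 35 bases. A read lying wholly within such a run could not be assigned to 1 isoform by sequence alone. Whether any read was that short was not tested.

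Promoters were scanned for CCAAT on both strands from 250 bases before to 50 bases after the start codon in R64. CCAAT was found in 42 of 59 member promoters (71.2%) and in 2601 of all 6001 promoters (43.3%). It stood in 4 of 4 complex II promoters, 7 of 9 of complex III, 8 of 9 of complex IV and 12 of 13 of the ATP synthase subunits. Windows of 30 bases around it are shown for subunits that were downregulated in tetO-*GLN4* and for subunits that were not. The latter come from the same complexes and, for *SDH4*, from complex II, where no subunit was downregulated. Each window reads 5′ to 3′ on the gene's strand with the motif in capitals (ATTGG where the gene's strand holds its complement).
QCR6 (downregulated, chrVI:224990-225019, reverse strand): ccgtgcaCCAATgggaagcacgttccgggc
COX8 (downregulated, chrXII:910150-910179, reverse strand): caaacggtttgcaCCAATcatacgagagaa
COX7 (downregulated, chrXIII:779273-779302, reverse strand): aaggcagtacttgATTGGctacgccgcgca
ATP16 (downregulated, chrIV:442852-442881, forward strand): aatagatgcccagCCAATcaaagcgcatta
QCR7 (not called, chrIV:1496713-1496742, reverse strand): gatcttgttttgaCCAATcaggagcgacgc
COX12 (not called, chrXII:225361-225390, reverse strand): ttcataacattgaCCAATcaattttcagaa
ATP5 (not called, chrIV:1058961-1058990, reverse strand): acaatttcaaacgCCAATtgttaactttgt
SDH4 (not called, chrIV:817704-817733, forward strand): cataagcattgagCCAATcgctgctgtttt
CCAAT stood on both sides of the response: 10 of 16 downregulated members held it, as did 32 of the other 43. The median log2 ratio in tetO-*GLN4* was -0.40 over the 42 members with CCAAT and -0.26 over the 17 without. *COX4*, *COR1*, *ATP1*, *COX14*, *CYC1* and *CYC8*, all downregulated, had no CCAAT in the window, nor did the upregulated *CYC7* and *NDE2*.

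Other motifs searched on both strands over the same window were less common. The core of the site of the heme-dependent activator Hap1 (a pair of CGG triplets around a spacer with TA) was present in 1 of 59 member promoters and 8 of 6001 overall. The one member was *QCR6*, with the match within chrVI:224974-225003 on the reverse strand, shown because it overlaps the window given above.
QCR6, Hap1 core: agcacgttcCGGGCATATCGGactggggcg
ATTGTT, the core bound by the hypoxic repressor Rox1, was found in 37.3% of member promoters and 35.2% of all. It shared bases with a CCAAT match in 1 member promoter. TGACTC, the core of the site of the amino acid starvation activator Gcn4, was found in 2 members (*COX9* and *COX23*), or 3.39%, against 7.98% of all promoters. These matches describe the letters in a fixed window and do not show binding.

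In the wild type, doxycycline left the members within their error. None of the 59 had intervals that lay apart, where 0.152% of 6560 tested genes did. The z test of the log2 ratio with Benjamini-Hochberg adjustment and the 2-fold rule also called 0 members, beside 0.107% and 1.13% of all genes. The member median was -0.06, 41 of 59 ratios lay below 0 beside 51.8% of all genes, and the log2 ratios ran from -0.35 (*CYC7*) to 0.29 (*CYC1*), beside SDs of 0.20 to 0.31.

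In tetO-*GLN4*, 18 of 59 members were called (30.5%), close to the 31.1% of all 6553 tested genes. By direction, 16 members were downregulated (27.1%, against 16.1% of all genes) and 2 were upregulated (3.39%, against 15.0%). The downregulated members were *NDE1*, *COR1*, *QCR6*, *CYC1*, *COX4*, *COX7*, *COX8*, *COX14*, *COX18*, *COX19*, *ATP1*, *ATP2*, *ATP14*, *ATP16*, *ATP18* and *CYC8*, and the upregulated members were *NDE2* and *CYC7*. The member median was -0.39, and 40 of 59 ratios lay below 0 beside 49.6% of all genes. By a 2-fold rule 2 members were higher and 5 lower, beside 10.5% and 10.1% of all genes (20.6% in all), and by the z test 26 were called, beside 39.0%. Relative to the weighted mean the split turned over, to 21 members higher and 2 lower, where 45.9% of all genes were higher and 4.27% lower. Directions of single genes, given below, hold on the scale as deposited. Of the 18 called members only *NDE2* and *CYC7* (higher) and *CYC1* and *COX19* (lower) also had intervals apart in the same direction on the centred scale. Bulk RNA cannot tell fewer expressing cells from less RNA per cell.

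**Figure D1:**
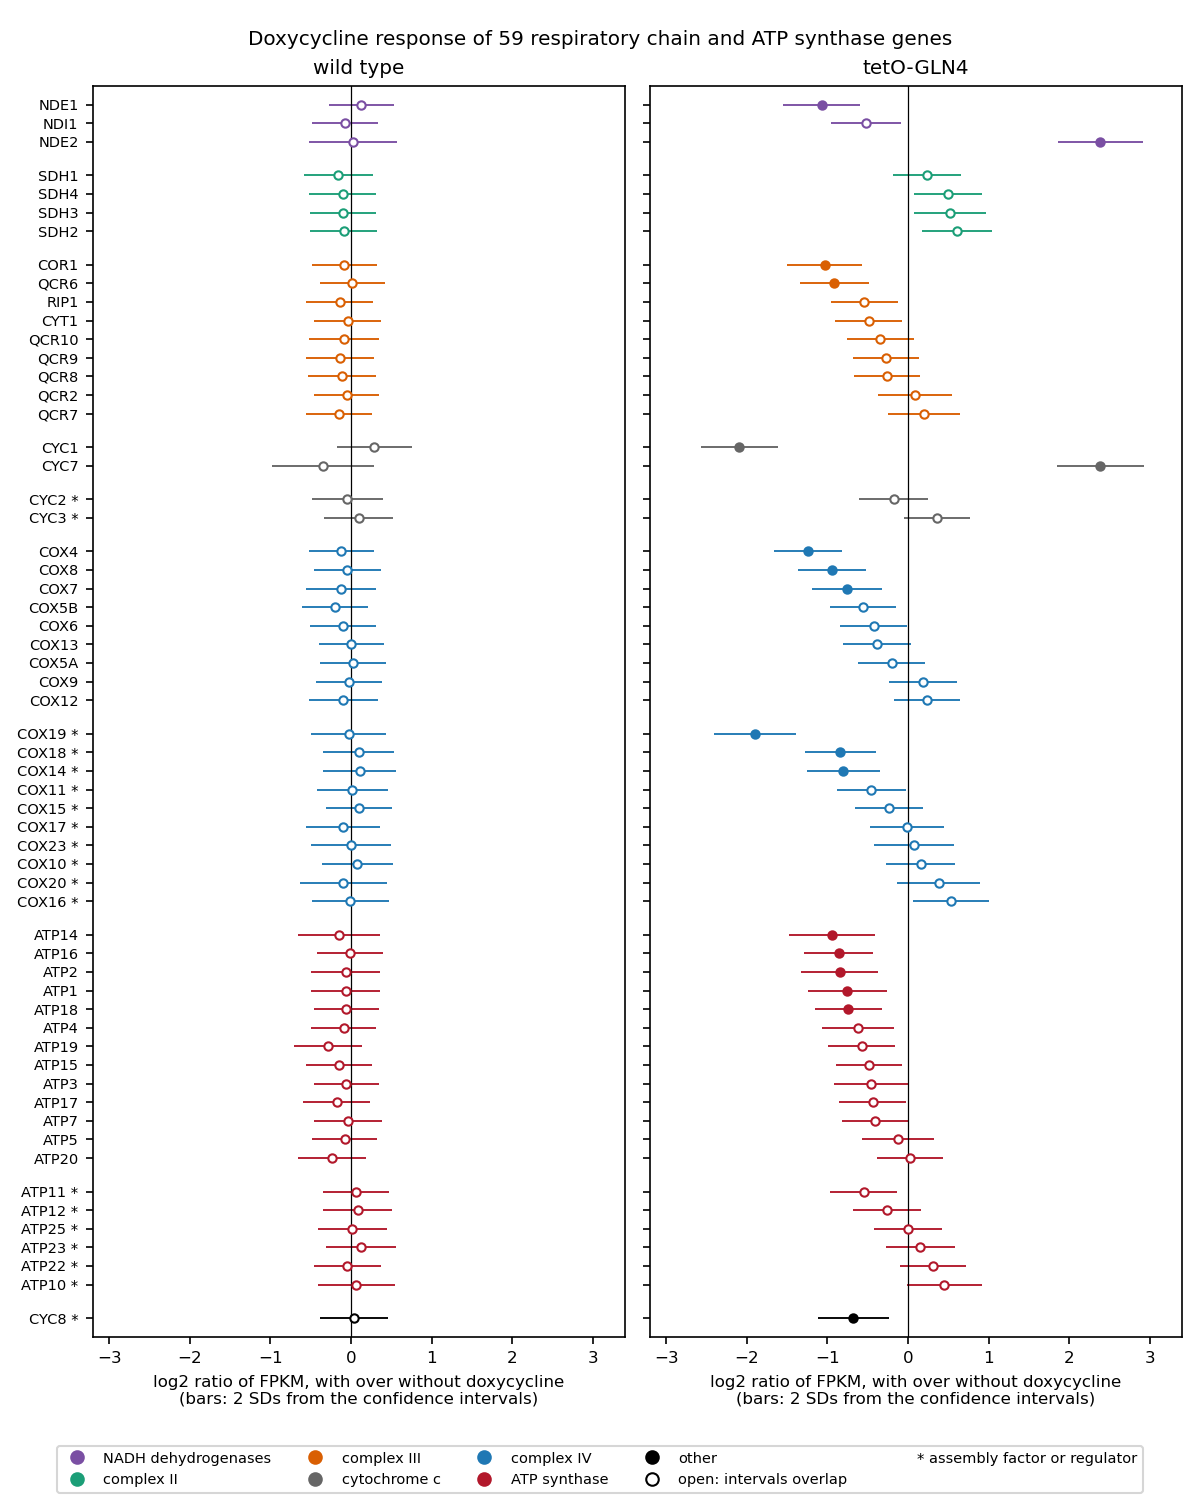
Log2 ratio of FPKM with over without doxycycline for the 59 members in the wild type (left) and tetO-*GLN4* (right), coloured by complex, with bars of 2 SDs derived from the confidence intervals. Filled points mark members whose intervals lay apart: 18 in tetO-*GLN4* and none in the wild type.

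The external NADH dehydrogenases moved in opposite directions. *NDE1*, an external enzyme that oxidizes cytosolic NADH at the inner membrane, stood at an FPKM of 130.0 without and 142.2 with doxycycline in the wild type. In tetO-*GLN4* it fell from 360.7 (interval 273.7 to 447.7) to 171.7 (133.0 to 210.4), a log2 ratio of -1.07 ± 0.24 (SD). The treated level stayed near the wild-type levels, whereas the untreated tetO-*GLN4* level stood above all 3 others. *NDE2*, its isoform, was the least abundant member in every condition, at 3.38 without and 3.45 with doxycycline in the wild type. In tetO-*GLN4* it rose from 3.04 (2.15 to 3.92) to 15.9 (12.4 to 19.4), 5.23-fold higher. *NDI1*, the internal enzyme that oxidizes matrix NADH, stood at 58.9 and 56.1 under both treatments of the wild type. In tetO-*GLN4* *NDI1* stood at 122 (95 to 148) and 84.5 (67.1 to 102), where the intervals overlapped but the z test called it lower. *NDE2* made up 0.834% of summed *NDE1* and *NDE2* FPKM in untreated and 8.47% in treated tetO-*GLN4*, so *NDE1* remained the main external enzyme at the mRNA level.

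Complex II, succinate dehydrogenase, held the only set of subunits that all lay above 0 in tetO-*GLN4*. None of the 4 passed the interval rule. *SDH2*, the iron-sulfur subunit, stood at 114 and 107 in the wild type without and with doxycycline, and at 187 (148 to 225) and 285 (223 to 346) in tetO-*GLN4*, a log2 ratio of 0.61 ± 0.22. *SDH3*, the cytochrome b anchor, stood at 451 and 646 in tetO-*GLN4* (0.52 ± 0.23). *SDH4*, the other membrane anchor, stood at 261 and 367 (0.49 ± 0.21). *SDH1*, the flavoprotein, stood at 54.9 and 64.5 (0.23 ± 0.21). For *SDH2* the intervals only just overlapped, at 225.2 against 223.3. The z test across all genes called *SDH2* and *SDH4* and did not call *SDH3* and *SDH1*. In the wild type all 4 lay slightly below 0, between -0.16 and -0.09. On the centred scale 45.9% of all genes were called higher in tetO-*GLN4*. All 4 subunits were among them, from 0.91 for *SDH1* to 1.28 for *SDH2*. Their level order was the same in all 4 conditions: *SDH3* was highest, *SDH4* and *SDH2* overlapped each other, and *SDH1* was lowest, 15.0-fold below *SDH3* in the untreated wild type and 8.21-fold below it in untreated tetO-*GLN4*.

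In complex III, the cytochrome bc1 complex, 2 of 9 subunits were downregulated (22.2%, near the 16.1% of all genes), and the median was -0.34. *COR1*, a core subunit, stood at 213 and 202 in the wild type and fell in tetO-*GLN4* from 328 (252 to 405) to 160.1 (125 to 195), a log2 ratio of -1.04 ± 0.23. *QCR6*, an acidic small subunit, stood at 486 and 491 in the wild type and fell in tetO-*GLN4* from 711 (557 to 866) to 377 (301 to 453), or -0.92 ± 0.21. The partner core subunit *QCR2* stood at 270.4 (210 to 331) and 288 (223 to 353) in tetO-*GLN4*, a log2 ratio of 0.09 ± 0.23. *QCR7*, a small subunit near cytochrome b, had the highest ratio of the complex at 0.20 ± 0.22, with 989 and 1138 FPKM. The redox subunits *RIP1* (Rieske iron-sulfur protein, 219.9 and 151) and *CYT1* (cytochrome c1, 163 and 116) gave -0.54 and -0.49 with overlapping intervals. The z test called *RIP1* and did not call *CYT1*. *QCR8*, *QCR9* and *QCR10* lay between -0.34 and -0.26.

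The cytochrome c isoforms exchanged rank. *CYC1* encodes iso-1, the main aerobic form, and stood at 136 (105 to 168) without and 166 (129 to 203) with doxycycline in the wild type. In tetO-*GLN4* it fell from 305 (241 to 368) to 71.4 (53.3 to 89.5), 4.27-fold lower, with a log2 ratio of -2.09 ± 0.24. *CYC7* encodes iso-2, the form favoured in low oxygen, and stood at 19.6 (13.7 to 25.5) and 15.4 (10.6 to 20.2) in the wild type. In tetO-*GLN4* it rose from 22.4 (15.8 to 29.0) to 117 (90.0 to 144), 5.22-fold higher, with a log2 ratio of 2.38 ± 0.27. *CYC1* was thus the more abundant isoform in 3 conditions and the less abundant in treated tetO-*GLN4*, where the intervals of the isoforms lay just apart. Its share of summed *CYC1* and *CYC7* FPKM was 87.4% and 91.5% in the wild type without and with doxycycline, 93.2% in untreated tetO-*GLN4* and 37.9% in treated tetO-*GLN4*, where the confidence bounds allow 27.0% to 49.9%. The sum of both fell from 327 to 188, a level close to the wild-type sums of 156 and 182. The heme attachment factors *CYC3* (102 and 131) and *CYC2* (42.3 and 37.3) had overlapping intervals in tetO-*GLN4*.

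**Figure D2:**
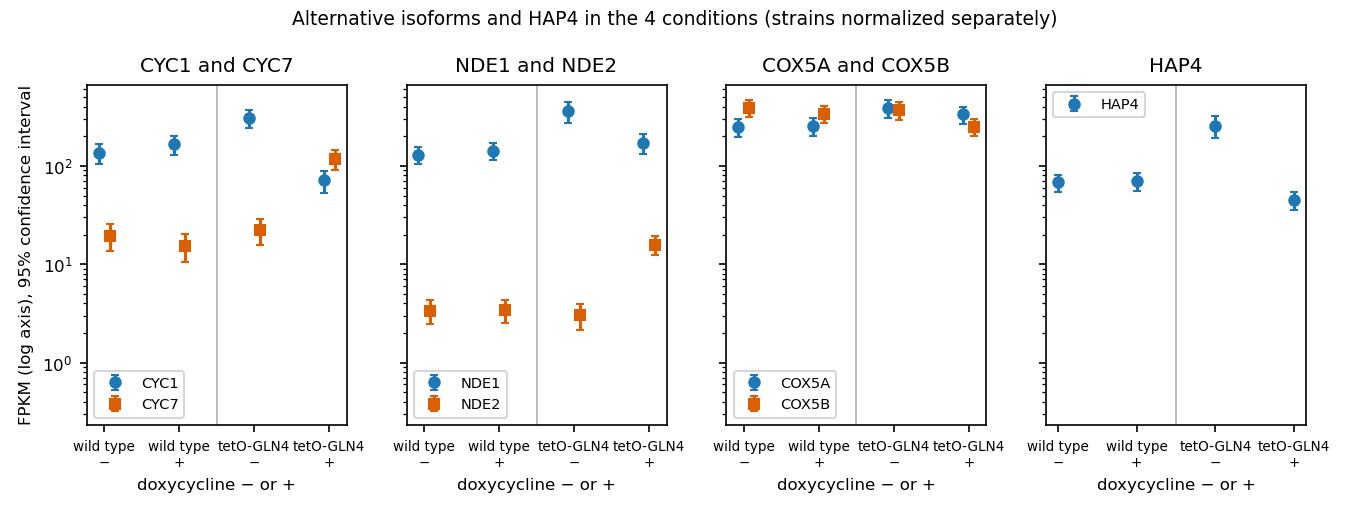
FPKM on a log axis with 95% confidence intervals for the isoform pairs *CYC1* and *CYC7*, *NDE1* and *NDE2*, *COX5A* and *COX5B*, and for the activator gene *HAP4*, without (−) and with (+) doxycycline in both strains. *CYC7* passes *CYC1* only in treated tetO-*GLN4* (117 against 71.4), *COX5A* and *COX5B* stay within 1 decade of each other, and *HAP4* is highest in untreated tetO-*GLN4* at 256.

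In complex IV, cytochrome c oxidase, 3 of 9 subunits (median -0.43) and 3 of 10 assembly factors (median -0.13) were downregulated, beside 16.1% of all genes. *COX4*, a nuclear subunit with a zinc site, stood at 339 and 312 in the wild type and fell in tetO-*GLN4* from 451 (358 to 545) to 190.5 (152 to 229), or 2.37-fold lower (log2 ratio -1.24 ± 0.21). *COX8* fell from 1373 (1097 to 1648) to 712 (563 to 862), or -0.95 ± 0.21, and *COX7* from 1927 (1528 to 2326) to 1143 (894 to 1392), or -0.75 ± 0.22. Both were small nuclear subunits with wild-type levels of 1184 and 1149 for *COX8* and 1700.4 and 1560 for *COX7*. At the other end, *COX12* stood at 866 and 1021 (0.24 ± 0.21) and *COX9* at 4768 and 5425 (0.19 ± 0.21) in tetO-*GLN4*, with overlapping intervals. The distance between the highest and the lowest subunit of the complex was 12.9-fold in untreated and 28.5-fold in treated tetO-*GLN4*, with *COX9* at the top both times and *COX4* at the bottom after treatment.

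Subunit 5 of complex IV has an aerobic isoform, *COX5A*, and a hypoxic isoform, *COX5B*. Neither had intervals with and without doxycycline that lay apart in either strain. The z test called *COX5B* lower in tetO-*GLN4* and did not call *COX5A*. In the untreated wild type *COX5B* was the higher, at 390.2 (311 to 469) against 249.8 (199 to 300.3), and the intervals lay apart. In the treated wild type the values were 339.9 and 254 with overlapping intervals. In tetO-*GLN4* *COX5A* stood at 385 and 335 and *COX5B* at 370.4 and 252, log2 ratios of -0.20 ± 0.21 and -0.56 ± 0.21. *COX5A* made up 51.0% of the pair without and 57.1% with doxycycline, and the ranges that the confidence bounds allow overlapped, 40.8% to 61.1% and 46.9% to 66.6%. Over their coding sequences the isoforms were 66.4% identical with a longest shared run of 12 bases, and *NDE1* and *NDE2* 63.5% with 11 bases.

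Among the complex IV assembly factors *COX19* gave the second largest fall of all members. *COX19*, a copper-binding protein of the intermembrane space, stood at 168 and 165 in the wild type and fell in tetO-*GLN4* from 228 (177 to 278) to 61.2 (44.6 to 77.7), 3.72-fold lower. *COX18*, which helps insert Cox2 into the membrane, fell from 51.0 to 28.5 (-0.84 ± 0.22), and *COX14*, which acts in Cox1 synthesis and assembly, fell from 882 to 506 (-0.80 ± 0.22). The copper chaperone genes *COX17* (592 and 587) and *COX23* (47.6 and 50.1) lay at -0.01 and 0.07. The heme A synthesis genes *COX10* (0.16) and *COX15* (-0.24), the copper insertion gene *COX11* (-0.45) and the assembly genes *COX16* (0.54) and *COX20* (0.38) had overlapping intervals. *COX20* shares its locus with an overlapping open reading frame, as do *ATP1*, *ATP14* and *CYC8*. Whether the authors' quantification used the strand of the reads is not given in the sources used here, so these 4 values may include reads of the overlapping frame.

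Of the 13 nuclear ATP synthase subunits that the naming rule found, 5 were downregulated (38.5%, beside 16.1% of all genes), with a median of -0.58. Of their ratios 12 lay below 0. In the catalytic F1 part, *ATP1* (alpha) fell in tetO-*GLN4* from 439 (333 to 546) to 260.5 (198 to 323), a log2 ratio of -0.75 ± 0.25, and *ATP2* (beta) from 854 (654 to 1053) to 474 (363 to 586), or -0.85 ± 0.24. *ATP16* (delta, in the central stalk) fell from 556 (438 to 675) to 306 (244 to 368), or -0.86 ± 0.21. *ATP15* (epsilon) stood at 2884 and 2064 and *ATP3* (gamma) at 439 and 319, with overlapping intervals. Of the 5 F1 subunits 3 were downregulated, and *ATP15* and *ATP3* had log2 ratios of -0.48 and -0.46 that passed neither the interval rule nor the z test.

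In the membrane part and peripheral stalk of the enzyme, 2 of 8 nuclear subunits found by the naming rule were downregulated (25%, beside 16.1% of all genes). *ATP14* (subunit h) fell from 734 (535 to 933) to 381 (284 to 479), or -0.94 ± 0.27, and *ATP18* (subunit i/j) from 4857 (3864 to 5851) to 2902 (2318 to 3486), or -0.74 ± 0.21. *ATP20* (subunit g, which helps pair the enzyme into dimers) had the highest ratio at 0.02 ± 0.21, with 447 and 454. *ATP5*, the oligomycin sensitivity protein that joins the stalk to F1, lay at -0.12, and the other 4 between -0.62 (*ATP4*) and -0.41 (*ATP7*). Of these 4 the z test called *ATP4* and *ATP19*. In the wild type the 13 subunits lay between -0.29 (*ATP19*) and -0.01 (*ATP16*), and all were below 0 with none called. For the 6 assembly and expression factors the median in tetO-*GLN4* was 0.08, with 3 above and 3 below 0. They ran from -0.55 (*ATP11*, chaperone of the beta subunit) to 0.45 (*ATP10*, which acts in Fo assembly). None had intervals that lay apart, and the z test called only *ATP11*.

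**Figure D3:**
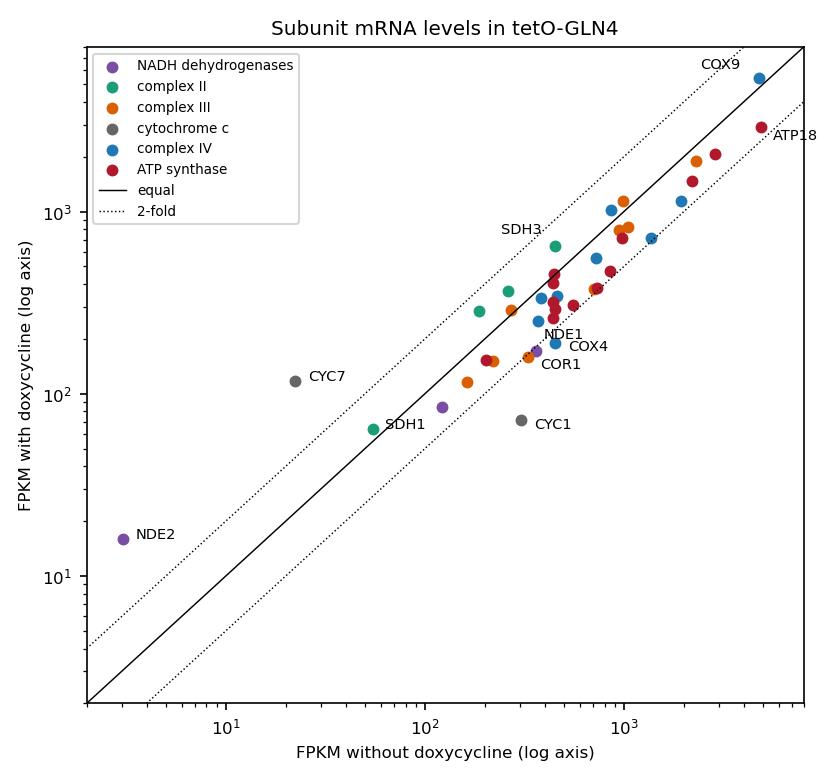
FPKM of the 40 subunit genes in tetO-*GLN4* without (horizontal) and with (vertical) doxycycline, both on log axes, coloured by complex, with the line of equal levels and dotted lines at 2-fold. *CYC7* and *NDE2* lie above the upper dotted line, *CYC1*, *COX4*, *NDE1* and *COR1* below the lower one, and complex II above the line of equality.

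Over all tested genes, 16.1% were downregulated and 15.0% upregulated in tetO-*GLN4*. Of the 40 subunit genes, 12 were downregulated (30%) and 2 upregulated (5%), with a median of -0.45. Of the other 19 members 4 were downregulated (21.1%, near the share of all genes), with a median of -0.01. The 4 were *COX14*, *COX18*, *COX19* and *CYC8*. *CYC8*, which forms a corepressor with Tup1, fell from 50.9 (39.7 to 62.1) to 31.8 (25.1 to 38.5).

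Levels of the subunits ran with transcript length. In the untreated wild type the 10 subunit genes under 300 bases had a median FPKM of 1732 (586 to 4384), and the 30 longer genes had a median of 321 (3.38 to 892). Spearman's rho of FPKM with length over the 40 genes was -0.78 in the untreated wild type and -0.76 in treated tetO-*GLN4*. These values describe genes of the same libraries and the length enters the FPKM itself. The log2 ratio in tetO-*GLN4* had a rho of 0.11 with length and -0.39 with untreated FPKM over the 59 members. Subunits of 1 complex did not stand at equal FPKM in the untreated wild type. The highest and lowest differed 19.0-fold in complex III, 17.5-fold in complex IV and 25.3-fold in the ATP synthase. The highest, *QCR9*, *COX9* and *ATP18*, were all under 300 bases, so these distances cannot be told apart from length.

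**Figure D4:**
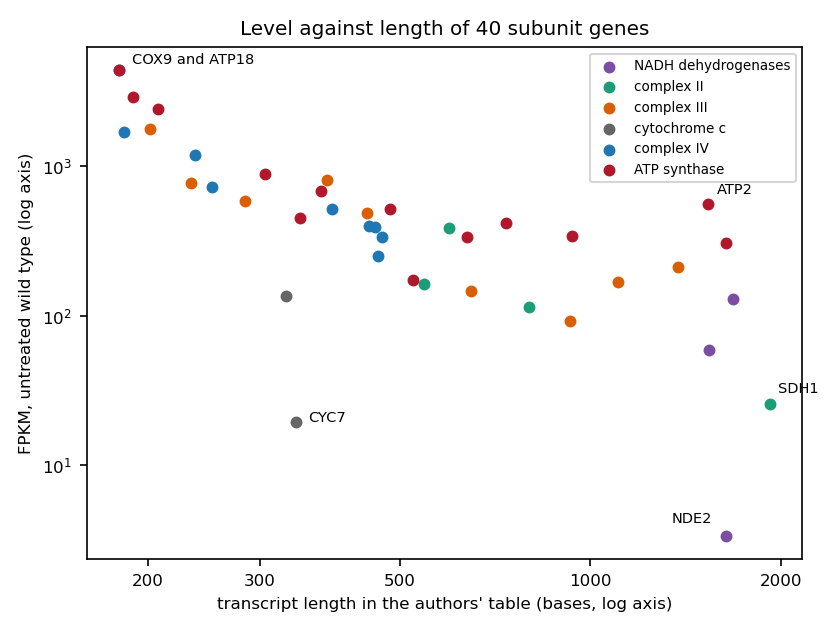
FPKM in the untreated wild type against transcript length for the 40 subunit genes, both on log axes, coloured by complex. Short genes such as *COX9* and *ATP18* stand at 4384 and 4370.1 FPKM, whereas *CYC7* (19.6) and *NDE2* (3.38) lie far below genes of like length.

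Glutamine codons were counted because the depleted enzyme charges glutamine tRNA. They made up a median of 3.69% of codons in the members and 3.69% in all 6001 nuclear coding genes. *CYC8* had the largest share of the members at 17.2%, and without it the largest was 10.2%. Spearman's rho of the glutamine share with the log2 ratio in tetO-*GLN4* was -0.06 over the 59 members.

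The response itself was compared between the strains with a z test of the difference of the log2 ratios, adjusted over 6538 genes tested in both tables. It was called for 12 of 59 members, beside 23.5% of all genes. The ratio was lower in tetO-*GLN4* for 10 (*CYC1*, *COX19*, *NDE1*, *COX4*, *COR1*, *COX18*, *QCR6*, *COX14*, *COX8* and *ATP16*) and higher for 2 (*CYC7* and *NDE2*), beside 12.5% and 11.0% of all genes. For the other 47 members, including all 4 complex II subunits and 12 of 13 ATP synthase subunits, the difference between the strains did not pass this test. Centring each strain on its weighted mean gave 18 members higher and 2 lower, beside 41.4% and 3.98% of all genes.

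Untreated tetO-*GLN4* levels stood somewhat above wild-type levels for many members, a side-by-side reading of separately normalized tables with no test. The log2 ratio of tetO-*GLN4* over the wild type without doxycycline had a median of 0.34 over the members and 0.15 over all genes, and 44 of 59 members lay above the latter. *NDE1* (1.47), *CYC1* (1.16), *SDH1* (1.09) and *NDI1* (1.05) were the highest. With doxycycline the medians were 0.13 for the members and 0.17 for all genes, with 29 of 59 members above. Under treatment *NDE1* lay at 0.27 and *CYC1* at -1.22, whereas *SDH1* (1.47), *CYC7* (2.92) and *NDE2* (2.20) stood above their wild-type levels.

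Regulators known to act on these genes were read alongside. *HAP4* stood at 68.2 (54.6 to 81.7) without and 70.2 (56.2 to 84.1) with doxycycline in the wild type. In tetO-*GLN4* it fell from 256 (191 to 321) to 44.7 (35.7 to 53.7), a log2 ratio of -2.52 ± 0.23. Set side by side, its untreated tetO-*GLN4* level stood above the other 3, as for *CYC1* and *NDE1*. *HAP2* (0.34), *HAP3* (-0.02), *HAP5* (0.35) and the heme-dependent activator *HAP1* (0.33) had overlapping intervals. *TUP1*, partner of Cyc8, fell from 98.8 to 43.4 (-1.19 ± 0.21), and *ROX1*, the hypoxic repressor, rose from 99.5 to 172 (0.79 ± 0.22). In all, 1 of 10 listed regulators was upregulated and 2 were downregulated, with a median of 0.22, a share near the 31.1% of all genes called in either direction. How far the level of any regulator bears on the members was not tested.

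Other genes of oxidative phosphorylation outside the naming rule gave calls in both directions in tetO-*GLN4*, where 15.0% of all genes were called higher and 16.1% lower, and no call in the wild type. Of 8 inhibitors and partners of the ATP synthase, *INH1*, which inhibits its hydrolysis (723 to 336, -1.10 ± 0.22), and *STF2*, long linked to the same inhibitor (2931 to 587, -2.32 ± 0.23), were downregulated, and *AEP3* (0.82) was upregulated. Of 5 carriers of ADP, ATP and phosphate, *PET9*, the main ADP/ATP carrier, fell from 518 to 319 (-0.70 ± 0.23) and its minor isoform *AAC1* rose from 44.6 to 88.7 (0.99 ± 0.21). Of 4 genes for other routes of electrons and succinate, *GUT2* (glycerol 3-phosphate dehydrogenase, 1.02), *CYB2* (lactate dehydrogenase, 0.71) and *SFC1* (succinate-fumarate carrier, 3.53) were upregulated, and *DLD1* (D-lactate dehydrogenase, -0.91) was downregulated. *SFC1* rose from 0.971 (0.526 to 1.42) to 11.2 (8.30 to 14.1).

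Assembly genes outside the naming rule were read in the same way, against the 15.0% of all genes called higher and 16.1% called lower in tetO-*GLN4*. Of 10 genes for complex III assembly and *COB* expression, *CBP2* (0.66) and *MZM1* (0.69) were upregulated and none was downregulated. Of 23 for complex IV assembly and COX expression, *PET117* (0.68) and *SOM1* (0.95) were upregulated and *COA4* (-0.97) and *OXA1* (-0.63) downregulated, with a median of 0.07. A further 6 genes now named *SDH5* to *SDH9* and *COX26* are listed under older names and so fell outside the rule. None of these was called, and their median in tetO-*GLN4* was 0.43. *COX26*, listed as YDR119W-A, stood at 17.4 and 15.8 in wild-type cells and at 94.4 and 59.2 in tetO-*GLN4*.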

How the data were processed

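RNA was sequenced from 12 cultures, 3 for each of 4 conditions. Per the labels and the submitters' processing notes, the authors aligned reads with TopHat 1.4.0 to sacCer3 (R64) and ran Cufflinks and Cuffdiff. The deposited FPKM values are 1 pooled value per gene and condition with 95% bounds, in 1 table per strain. Separate deposited tables of the authors' fold changes and p-values were not used. Read counts and library depth were not analysed here, so precision is known only through these bounds.

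Genes with a usable estimate and FPKM above 0 in both conditions were tested (6560 in the wild type, 6553 in tetO-*GLN4*). Log2 ratios took no pseudocount, and their SDs took the distance from FPKM to the upper bound as 2 SDs. A change was called where the intervals lay apart. Alternatives were a 2-fold rule, a z test (Benjamini-Hochberg, 0.05), FPKM minimums of 1 and 10, pseudocounts of 1 and 0.1, other member sets and centring on the median or the FPKM-weighted mean. The z test assumes normal errors and pooled values, not cultures. No p-value here measures the spread between individual cultures.

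Members and lists were chosen with earlier results of these data known. Those named in full are the called members, the highest and lowest subunits of each complex, the isoform pairs and members sharing a locus; of the 73 genes on other lists, *HAP1* to *HAP5*, *INH1*, *PET9* and the called genes. Coordinates of 55 members equalled those of R64. Sequences, promoters and codons came from the RefSeq R64 genome. Scripts used Python 3.11.15, pandas 2.3.3, numpy 2.4.6, scipy 1.17.1 and matplotlib 3.10.9, and were tested on simulated data.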

Additional observations from a re-analysis of the deposited data

Results flagged for a closer look

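The log2 ratio of FPKM with over without doxycycline differed between the strains for 12 of 59 members. The call was the z test of the difference adjusted over 6538 genes. That test called 23.5% of all genes, 12.5% with a lower and 11.0% with a higher ratio in tetO-*GLN4*, so being called does not set the members apart. Each value below is the ratio in tetO-*GLN4* minus that in the wild type, with its SD, and all passed an adjusted threshold of 0.05. Among electron carriers, *CYC1* gave -2.38 ± 0.33 and *CYC7* gave 2.73 ± 0.41. *NDE1* gave -1.20 ± 0.31 and *NDE2* gave 2.36 ± 0.38. In complex III, *COR1* gave -0.95 ± 0.31 and *QCR6* -0.93 ± 0.29.

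Among complex IV subunits, *COX4* gave -1.13 ± 0.29 and *COX8* -0.90 ± 0.30. Its assembly factors *COX19*, *COX18* and *COX14* gave -1.87 ± 0.34, -0.93 ± 0.31 and -0.91 ± 0.32. The ATP synthase subunit *ATP16* gave -0.85 ± 0.29.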

How the results depend on the processing

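Leaving out single cultures was not run, since each strain and condition has 1 pooled value. No paired analysis was possible because the columns hold no value per culture and carry no replicate number.

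The scale decided most directions. Centring tetO-*GLN4* on its FPKM-weighted mean moved the member median from -0.39 to 0.28 and the split of calls from 2 higher and 16 lower to 21 higher and 2 lower (23 in all). On that scale 45.9% of all genes were higher and 4.27% lower. *ATP25* (0.67) and *COX17* (0.66), both near 0 as deposited, became higher. Of the 59 single ratios, 14 lost and 19 gained a call. *CYC1* (-1.42) and *COX19* (-1.22) remained lower. Centring each strain gave 20 members that differed between strains in place of 12, of which 18 were higher. On that scale 41.4% of all genes were higher and 3.98% lower. Centring on the median gave 18 and 12 members again, with 2 higher in each.

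The call rule moved counts: 7 members of tetO-*GLN4* passed 2-fold (beside 20.6% of all genes) and 26 passed the z test (4 higher, 22 lower, beside 39.0%). At an adjusted p under 0.01, 7 members differed between strains, and the share of all genes at that threshold is not given here. FPKM minimums of 10 and 1 left 17 (29.3%) and 18 (30.5%) calls. The 40 subunits alone held 14 (35%), and the members without a shared locus 15 (27.3%). The main rule called 31.1% of all genes. All 8 alternatives left 0 calls in the wild type. Those that only dropped members (the FPKM minimums, the subunits alone and the members without a shared locus) could give no other result. Adding pseudocounts of 1 or 0.1 changed no call or direction of a single member, and the isoform shares and the members' motif shares moved by less than their intervals. With bases before the start only, CCAAT stood in 66.1% of member promoters and in 35.4% of all promoters, the latter below its interval over the longer window. Depth is unknown, so the interval width, a median SD of 0.22 in log2 in tetO-*GLN4*, is the only limit that can be given.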
